A study of Mus musculus with 6 samples.

Results

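Of the 6 arrays of the series, 2 compared epidermis of Sox4cKO embryos with epidermis of wild-type controls at embryonic day 16 (E16), and these 2 arrays are described here. They were taken by their labels. Each array carried knockout RNA in one dye and wild-type RNA in the other, with the knockout in Cy5 on replicate 1 and in Cy3 on replicate 2. The other 4 arrays compared Sox11cKO (2 arrays) and Sox4/11 dcKO, which lacks both genes (2 arrays), with wild type in the same way. In the Sox4cKO embryos a floxed Sox4 allele (Sox4 fl/fl) was deleted by Krt14-Cre, a recombinase expressed from the promoter of a basal keratin. Daughter cells inherit the deletion, and cells outside the Krt14-expressing lineage keep Sox4. How complete the deletion was within that lineage was not measured here. The labels give the strain of all samples as 129SvEx:C57BL/6, while the study's methods give the Krt14-Cre mice as FVB/N. The controls were wild-type littermates. The sources used here do not state the exact genotype of the controls, how many embryos made up a sample, or whether one wild-type RNA served several comparisons. The founder stock also carried a Sox12-/- allele, and whether the profiled embryos carried it is not stated. Epidermis was peeled from dorsal skin after dispase treatment. A bulk measurement of this kind cannot tell fewer cells of a type from less RNA per cell.

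Sox4 encodes a transcription factor of the SoxC group, whose other members are Sox11 and Sox12. SoxC proteins bind DNA through a high-mobility-group domain that recognises an AACAAT-like or AACAAAG-like core, and they are known from neural progenitors, mesenchyme and embryonic epithelia, where they sustain immature cell states and regulate cytoskeletal genes. At E16 the mouse epidermis is stratifying under the periderm, a transient outer layer of flat cells, and its suprabasal cells start to express the genes of the cornified envelope.

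Values are log2(Sox4cKO/wild type) for each array, positive where the knockout was higher, or log2 channel levels of single samples. The mean of both arrays was tested with limma over 55681 probes and adjusted by the Benjamini-Hochberg method. A probe was called at an adjusted p under 0.05 and an absolute log2 ratio over 1.5. On the Sox4cKO arrays a channel had a signal well above background in 38.9% to 41.8% of spots, no spot was saturated, and the median raw signal of 60 to 62.5 in Cy5 lay over a background of 49 to 50.5, so most probes were near the floor of the measurement. The methods describe the samples of a genotype as biological replicates, and their litters are not stated. Y-linked transcripts were seen in both channels of replicate 1 and Xist in both channels of replicate 2, so the sex of the embryos was alike within an array and differed between the arrays.

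The study reported that it had checked these epidermal RNAs for loss of Sox4 by RT-qPCR before the arrays were run. On the arrays Sox4 itself was measured by 2 probes that gave different values. With the dimmer probe (A_55_P2131899) the log2 level was 4.74 and 4.79 in the Sox4cKO samples of replicates 1 and 2, and 6.40 and 7.05 in the wild-type samples. Both knockout samples lay below both wild-type samples, and neither knockout sample passed the scanner's test for a signal well above background, which both controls passed. The array ratios were −1.66 and −2.26 on the log2 scale, with a mean of −1.96 ± 0.43 (SD, n = 2 arrays). Against the lowest signal that counted as well above background, Sox4 was at least 3.05-fold lower in the knockout (limma adjusted p = 0.0289). With the brighter probe (A_55_P2121613) the level was 9.11 and 8.90 in the knockout and 9.25 and 9.60 in wild type, and the ratio of −0.42 ± 0.40 (SD, n = 2) did not pass the adjusted p (0.804). Its fitted ratio was −0.80 without Sox4cKO replicate 1 and −0.04 without replicate 2. Where either probe lies relative to the floxed segment was not determined.

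None of the probes for the related SoxC genes passed the test. One Sox11 probe had levels of 5.58 and 5.28 in the knockout against 5.82 and 4.87 in wild type, a mean log2 ratio of 0.08 (limma adjusted p = 0.972), and the other had a ratio of −0.00 (0.999). Sox12 had a ratio of −0.00 (0.998). Sox11 was near background in these samples, so a moderate difference was not detectable. The other Sox family genes on the array numbered 16, of which 7 were well above background in both channels of both arrays. Their median log2 ratio was −0.12 with a range of −0.30 to 0.31, and none passed the adjusted p.

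Loss of Sox4 alone left few transcripts past the test. Of 55681 probes, 3 were called (0.00539%), all of them lower in Sox4cKO and none higher, and these 3 were also the only probes past the adjusted p whatever their fold. They were the dimmer Sox4 probe and 1 probe each of Plppr3 and Tes. At an unadjusted p under 0.05, 3434 probes (6.17%) would be counted.

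Plppr3 encodes a membrane protein of the phospholipid phosphatase-related family, known mainly from neurons. Its log2 level was 5.27 and 5.91 in the Sox4cKO samples and 6.77 and 7.62 in the wild-type samples of replicates 1 and 2. Both knockout samples were below both wild-type samples, and the knockout passed the background test on 1 of the arrays. Plppr3 had a log2 ratio of −1.60 ± 0.14 (SD, n = 2), a 3.03-fold reduction (limma adjusted p = 0.0289).

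Tes encodes testin, a LIM-domain protein of focal adhesions and actin filaments. Its level was 6.70 and 6.99 in Sox4cKO and 8.08 and 8.67 in wild type, well above background in all 4 samples. The lower wild-type sample still exceeded the higher knockout sample. Tes fell by 1.53 ± 0.21 (SD, n = 2) on the log2 scale, or 2.89-fold (limma adjusted p = 0.0289). The calls of all 3 probes were lost when any one Sox4cKO or Sox11cKO array was left out (adjusted p 0.0734 to 0.205), when only probes well above background were tested (0.0704), and with the scanner software's own log ratio (0.520 to 0.526).

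SoxC factors act by binding DNA, and promoter windows can be searched for the SOX core. Promoter sequences are shown for the 2 called genes other than Sox4 and for 3 further genes with lower values. These 3 (Tead2, Ttyh3 and Wdr86) are the lower genes named below, besides Tes, whose window held a match. Windows of lower genes without a match, such as Tmsb10, Pxdn, Mex3a and Col4a1, are not shown. The printed windows therefore do not show how common a match was among the lower genes. Each printed window is 300 bases of RefSeq sequence (build GRCm38.p6) that spans the annotated start, read 5′ to 3′ on the strand of the gene. Capitals mark matches to AACAAT or AACAAAG on either strand. The windows are Tes at chr6:17064899-17065198 (plus strand), Plppr3 at chr10:79874585-79874884 (minus), Tead2 at chr7:45215542-45215841 (plus), Ttyh3 at chr5:140648982-140649281 (minus) and Wdr86 at chr5:24730631-24730930 (minus).
Tes: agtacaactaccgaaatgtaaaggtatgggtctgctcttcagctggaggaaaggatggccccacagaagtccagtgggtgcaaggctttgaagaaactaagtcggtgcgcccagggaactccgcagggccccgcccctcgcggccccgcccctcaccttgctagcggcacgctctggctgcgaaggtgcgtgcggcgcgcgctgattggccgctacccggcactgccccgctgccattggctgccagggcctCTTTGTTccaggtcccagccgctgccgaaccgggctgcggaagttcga
Plppr3: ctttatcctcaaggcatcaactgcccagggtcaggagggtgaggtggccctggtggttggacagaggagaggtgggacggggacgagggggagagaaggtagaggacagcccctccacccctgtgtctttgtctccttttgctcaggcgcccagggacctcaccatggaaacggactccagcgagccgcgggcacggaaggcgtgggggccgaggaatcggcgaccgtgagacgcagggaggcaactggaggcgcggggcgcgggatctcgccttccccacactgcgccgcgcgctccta
Tead2: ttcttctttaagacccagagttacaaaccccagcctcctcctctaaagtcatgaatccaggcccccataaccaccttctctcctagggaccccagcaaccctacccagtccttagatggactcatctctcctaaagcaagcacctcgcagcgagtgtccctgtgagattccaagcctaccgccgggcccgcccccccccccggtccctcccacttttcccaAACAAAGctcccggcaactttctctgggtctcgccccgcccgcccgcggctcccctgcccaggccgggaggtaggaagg
Ttyh3: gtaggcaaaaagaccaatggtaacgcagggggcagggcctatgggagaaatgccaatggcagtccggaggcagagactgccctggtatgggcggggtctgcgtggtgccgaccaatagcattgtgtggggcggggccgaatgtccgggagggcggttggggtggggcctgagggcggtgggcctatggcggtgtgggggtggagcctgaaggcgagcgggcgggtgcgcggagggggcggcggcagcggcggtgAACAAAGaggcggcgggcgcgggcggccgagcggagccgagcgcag
Wdr86: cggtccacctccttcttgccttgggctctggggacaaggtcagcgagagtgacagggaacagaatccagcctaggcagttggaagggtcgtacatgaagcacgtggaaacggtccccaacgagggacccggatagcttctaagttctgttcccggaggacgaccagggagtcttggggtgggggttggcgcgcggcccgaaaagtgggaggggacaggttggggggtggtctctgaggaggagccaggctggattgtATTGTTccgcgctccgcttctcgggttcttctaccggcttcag

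Of all 32851 promoter windows in the table, 10.7% held AACAAT, 5.85% held AACAAAG and 15.7% held either. The words differ in the sixth letter, so 1 position cannot match both. Among the called genes, 1 of 3 held a match (Tes). Of the 12 lower genes named below, 10 had a window in the table, and 4 of them held a match (Tes, Wdr86, Ttyh3 and Tead2). Of the 12 higher genes, 8 had a window and 0 held a match. Counted by gene, 17.7% of 27025 genes had a match in at least 1 window. A match is a description of the letters and not a binding site.

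**Figure D1:**
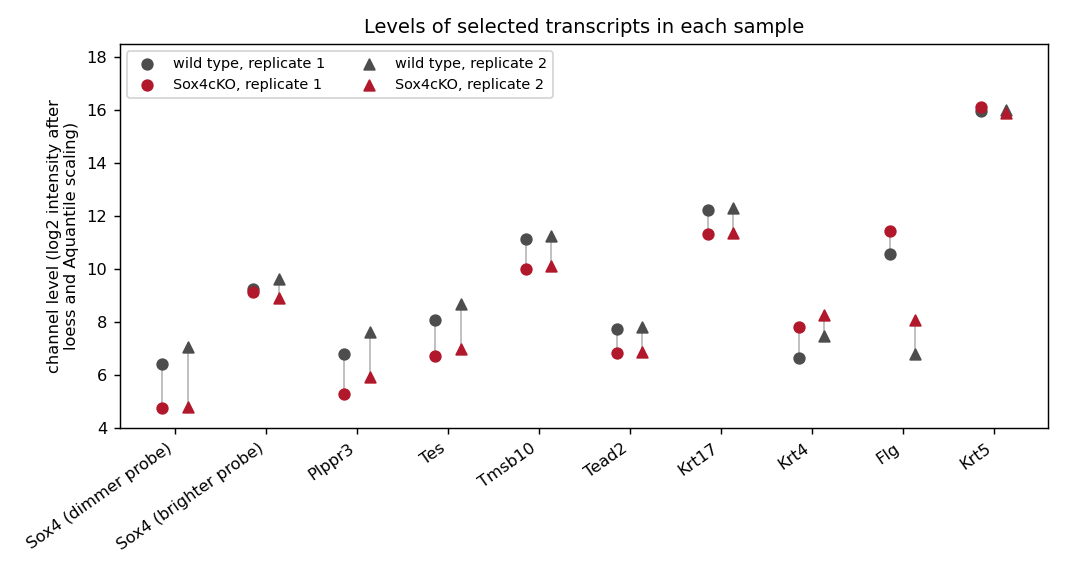
Log2 channel level (vertical axis) of 10 probes in the Sox4cKO and wild-type sample of each replicate, with a line joining the samples of 1 array. Both knockout samples lie below both wild-type samples for the dimmer Sox4 probe, Plppr3, Tes, Tmsb10, Tead2 and Krt17, while Flg differs more between replicates (11.43 and 8.07 in the knockout) than between knockout and wild type.

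Beyond the calls, the genes with the steadiest lower values were taken as those well above background in both channels of both arrays whose smaller array ratio was most extreme. These ratios chose the genes, so they are given as a description. The 12 lower genes had structural, matrix and regulatory roles. Apart from Tes, none passed the adjusted p (0.137 to 0.787).

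Among the cytoskeletal genes, Tmsb10 encodes thymosin beta 10, which binds actin monomers. Its level was 10.003 and 10.105 in the Sox4cKO samples against 11.115 and 11.254 in wild type, and no knockout sample reached a wild-type sample. The array ratios were −1.11 and −1.15, a 2.19-fold difference (limma adjusted p = 0.137). Krt17, a keratin of the embryonic epidermis, its appendages and activated keratinocytes, had levels of 11.32 and 11.35 in the knockout samples and of 12.22 and 12.31 in wild type. Its array ratios were −0.90 and −0.96 (adjusted p = 0.307).

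Basement-membrane genes were next. Pxdn encodes peroxidasin, an enzyme that cross-links collagen IV, and had array ratios of −0.99 and −1.15 (limma adjusted p = 0.137). Col4a1, a chain of collagen IV, had −1.38 and −0.80 (adjusted p = 0.307), with a fitted ratio of −0.67 when replicate 1 was left out. For both genes the 2 arrays had the same direction.

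Tead2 encodes a TEAD factor, a DNA-binding partner of the Hippo pathway co-activator YAP. Its level was 6.83 and 6.87 in Sox4cKO and 7.72 and 7.81 in wild type, so that the knockout pair and the wild-type pair did not overlap. The array ratios were −0.89 and −0.94 (limma adjusted p = 0.307), and a second Tead2 probe gave −0.79 and −0.85. Fgfrl1, a fibroblast growth factor receptor-like protein without a kinase domain, had ratios of −0.95 and −0.97 (adjusted p = 0.230). Mex3a, an RNA-binding protein, had −0.92 and −1.89 (0.244), and Ttyh3, a membrane protein of the tweety family, had −1.09 and −0.94 (0.137). The remaining members were Nrep (mean −1.07, adjusted p = 0.666), Wdr86 (−1.01, 0.244) and Bex1 (−0.94, 0.787).

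The 12 higher genes had smaller ratios, and none passed the adjusted p (0.137 to 0.814). Flg, which encodes filaggrin of the granular layer, had levels of 11.43 and 8.07 in the Sox4cKO samples and 10.57 and 6.796 in the wild-type samples of replicates 1 and 2. The knockout was above its own wild type on both arrays, but the replicates lay further apart than knockout and wild type, so the groups overlapped. The array ratios were 0.86 and 1.27 (limma adjusted p = 0.137). Krt4, a keratin of the periderm and of internal stratified epithelia, had levels of 7.80 and 8.26 in Sox4cKO and 6.62 and 7.48 in wild type. Both knockout samples were above both wild-type samples, with array ratios of 1.19 and 0.78 (adjusted p = 0.230).

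The other higher genes had mean log2 ratios between 0.62 and 0.80. Upk1b, a tetraspanin of uroplakin plaques, had a mean of 0.68, and Cygb, the oxygen-binding cytoglobin, had 0.76. Stfa2 (0.80) and Stfa2l1 (0.62) encode stefins, inhibitors of cysteine proteases. Stefin genes are near-identical copies, so their probes may read related transcripts. Ackr2, a scavenging chemokine receptor, had 0.79, Ptprz1, a receptor phosphatase, had 0.75, Tspan18, a tetraspanin, had 0.70 and Zfp949, a zinc finger gene, had 0.71. Gsg1 had 0.75. Saa2, an acute-phase serum amyloid, had a mean of 0.62. The array ratios on replicates 1 and 2 were 0.67 and 0.57 for Saa2, 0.61 and 0.64 for Stfa2l1, 0.67 and 0.92 for Stfa2 and 0.70 and 0.66 for Upk1b. Leaving out Sox4cKO replicate 1 moved the fitted log2 ratio of Saa2 to −0.17, of Stfa2l1 to 0.13, of Stfa2 to 0.22 and of Upk1b to 0.29. Leaving out replicate 2 moved them to 1.42, 1.11, 1.37 and 1.06. In these fits the dye coefficient rested on the arrays of the other genotypes, so the shifts do not show that the Sox4cKO arrays disagreed.

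**Figure D2:**
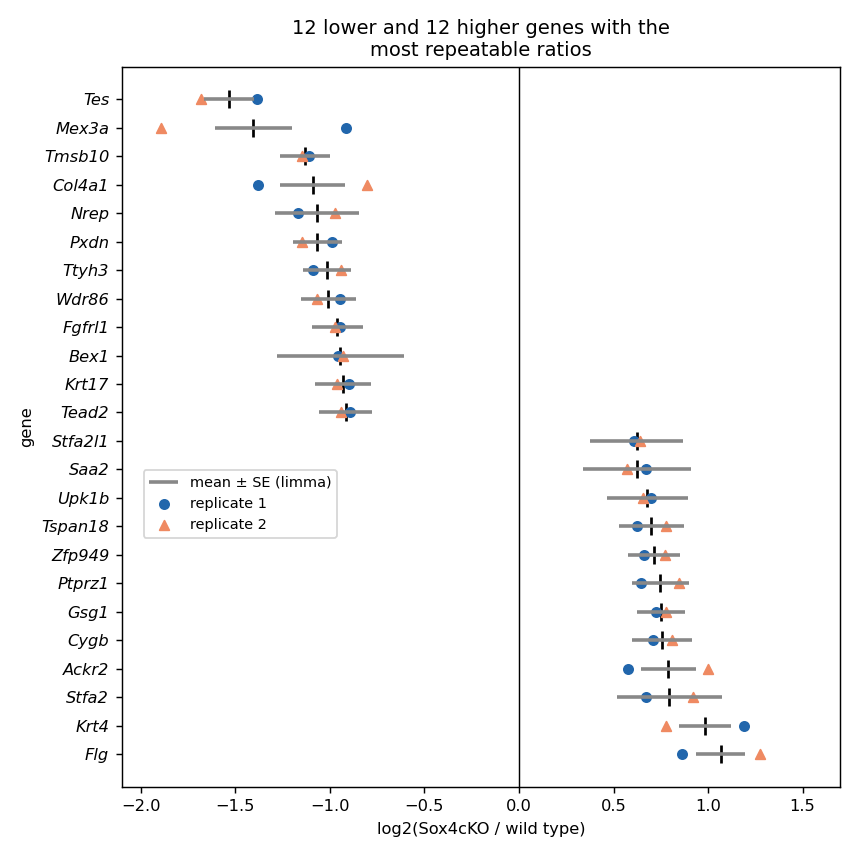
Log2(Sox4cKO/wild type) on the horizontal axis for the 12 lower and 12 higher genes with the steadiest array ratios, with 1 point per array and the mean with limma's standard error. Tes is the farthest of the lower genes at −1.53 and the only 1 of the 24 past the adjusted p, and Flg (1.07) and Krt4 (0.98) lead the higher genes.

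How many of these genes passed depended on the processing, including how the dim signals and the dye were handled. With a larger normexp offset of 50, 51 probes passed the adjusted p (0.0916%), 43 of them lower, among them 10 of the 12 lower and 5 of the 12 higher genes, although the larger offset compressed the ratios and left 0 past the fold limit. With a variance prior that followed intensity, 54 probes passed (0.0970%), 44 of them lower, with 10 of the 12 lower and 4 of the 12 higher genes. With ComBat, a batch adjustment, in place of the dye coefficient, 25 of 55667 probes passed, 20 of them lower. Among them were 5 of the 12 lower and 3 of the 12 higher genes. That setting does not count the degree of freedom of the dye term. With the scanner software's ratio 0 passed.

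The ratios of the 2 arrays had little correlation across probes. Over 19585 probes well above background in both channels of both arrays, Pearson's r was −0.06. With the dye coefficient removed it was 0.22. That coefficient was fitted partly on these same arrays and taken off their ratios with opposite signs, which by itself raises the correlation. The value of 0.22 therefore does not measure how well the arrays agreed. Of the 10972 genes well above background in all 4 samples, 5137 had the same sign on both arrays. Beyond 0.5 on the log2 scale on both arrays lay 23 higher and 44 lower genes, and beyond 1 lay 0 higher and 2 lower genes, Tes and Tmsb10. Beyond 1 in opposite directions lay 7 genes that were lower on replicate 1 and higher on replicate 2, which were Col3a1, Col1a2, Dlk1, Col6a3, Hdc, Twist2 and Robo1. One gene, Pop4, had the reverse pattern.

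The collagen genes and Twist2 among these are made by dermal cells. Over the 20 genes listed as made by dermal fibroblasts, the median log2 ratio was −1.12 on replicate 1 and 0.28 on replicate 2. Their summed linear level was 12789 and 14618 in the Sox4cKO samples of replicates 1 and 2, and 25994 and 10484 in the wild-type samples. The wild-type sample of replicate 1 thus stood above the other 3 samples. Col3a1, a fibrillar collagen of the dermis, had array ratios of −4.37 and 1.27, Col1a1 had −3.57 and 0.77 and Lum, which encodes lumican, had −3.42 and 0.98.

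Skeletal muscle genes behaved likewise on replicate 1. The 18 listed genes had a median of −1.49 there and of −0.01 on replicate 2, and their summed level was 1110 and 1062 in the knockout and 4127 and 1017 in wild type. Myl1, a fast myosin light chain, had ratios of −3.01 and −0.10. Of the 18 genes 10 were lower at an unadjusted p under 0.05 (against 3.85% of all genes), and none passed the adjusted p. When replicate 2 was left out, 26 probes were called, with Myl1, Myl4, Myh3, Acta1 and Col3a1 among them and none of the 3 probes called on both arrays. Among immune genes, the mast-cell gene Cpa3 had −3.56 and 0.86. The part of dermal and muscle RNA in the lower values of other genes was not tested.

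**Figure D3:**
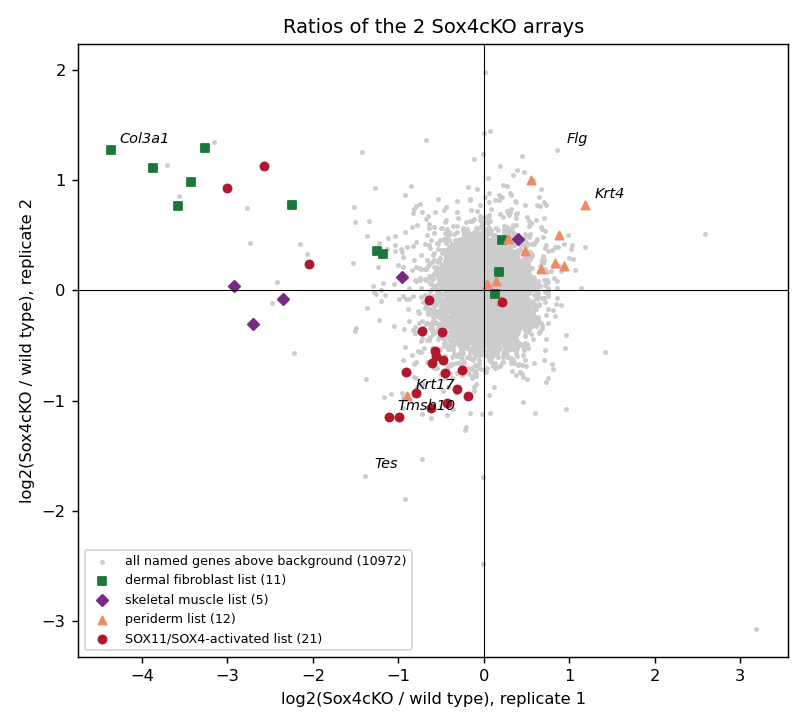
Log2(Sox4cKO/wild type) on replicate 1 (horizontal) against replicate 2 (vertical) for 10972 genes well above background in all 4 samples, with 4 gene lists coloured. Dermal and muscle genes extend far to the left on replicate 1 and lie closer to 0 or above it on replicate 2, whereas the genes described by the study as activated by SOX11 and SOX4 lie mostly in the lower left.

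The study named 25 genes as activated by SOX11 and SOX4, a list chosen partly on these arrays and so no independent evidence of its direction. In Sox4cKO 24 of the 25 had a mean below 0, 18 were lower on both arrays (against 23.0% of all genes) and 19 were lower at an unadjusted p under 0.05 (3.85% of all genes were), while none passed the adjusted p. The study set aside probesets altered by loss of either gene alone before it described these genes, so that none passed here may follow in part from how the list was made. Replicate 1 gave a median of −0.61 and replicate 2 of −0.60, beside a median of 0.00 over all 21367 genes. After Tmsb10 and Pxdn, Marcksl1, a regulator of actin, had a mean of −0.86, Evl, an actin-filament elongation factor, had −0.84 and Limd2, a LIM-domain protein, had −0.82. Fscn1, which encodes the actin-bundling protein fascin, had −0.76 (limma adjusted p = 0.351), with the knockout well above background on 1 of the arrays. Fblim1, an adaptor of cell-matrix adhesions, had array ratios of −0.31 and −0.89 (adjusted p = 0.729). The study reported fascin protein as unchanged in epidermis of the single knockouts. By real-time PCR it found Fblim1 strongly reduced with both genes lost and not with either alone. The 4 members with the largest gap between arrays, which dermal cells also make, had opposite signs on the 2 arrays, namely Pcolce (−3.01 and 0.93), Twist2 (−2.57 and 1.13), Serpinf1 (−2.07 and 0.20) and Lgals1 (−2.05 and 0.24). With Twist2, Vcan, Pcolce and Serpinf1 left out and Lgals1 kept, the list's median was −0.60. The study's list of genes repressed by the pair held 4 genes with a median of 0.12, led by Chit1 (0.35), a chitinase.

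A list of 8 genes joined SoxC targets known from earlier work (Tubb3, Tead2, Dcx and Prox1) with further genes at which the study described SOX11 binding (Tes, Lfng, S100a10 and Smad3). In keratinocytes the study also found tagged SOX11 and SOX4 bound at Tead2 and Tubb3. The values of the list were uneven, with a median of −0.11. Tes fell, and Tead2 had a mean of −0.92. Smad3, an effector of TGF-beta signalling, had −0.35 (limma adjusted p = 0.787). Tubb3, a neuronal beta-tubulin that is a classical SoxC target in neurons, had −0.02 (0.992), and S100a10, a calcium-binding protein family member, had 0.05.

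Cytoskeletal genes outside the study's list had ratios closer to 0. For 34 genes of actin and adhesion the median was −0.06, and Tmsb4x, the other abundant thymosin, had −0.33. For 16 microtubule and intermediate-filament genes the median was −0.20, and 4 were lower at an unadjusted p under 0.05 (3.85% of all genes were). These were Stmn1, a tubulin-sequestering phosphoprotein (array ratios −0.46 and −0.79), Tubb5 (−0.70 and −0.52), Tubb6 (−0.76 and −0.30) and Nes (−0.45 and −0.30), which encodes nestin. None passed the adjusted p. The other TEAD and Hippo pathway genes (18) had a median of 0.03, led by Vgll4 (−0.35), a TEAD co-factor.

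Periderm genes as a list had positive values. Of 14 genes, 10 were higher on both arrays (23.5% of all genes were), 1 was lower on both, which was Krt17, and 3 were higher at an unadjusted p under 0.05 (2.57% of all genes were). None passed the adjusted p. Replicate 1 had a median of 0.52 and replicate 2 of 0.21. After Krt4, the stress keratin Krt16 had array ratios of 0.56 and 1.01, and Krt19, a keratin of simple epithelia and periderm, had 0.88 and 0.50 (both limma adjusted p = 0.787). Krt6b had a mean of 0.58, Krt6a 0.54, Krt8 0.42 and Krt18 0.37.

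The epidermal differentiation complex, the gene cluster that encodes cornified-envelope proteins, had no common direction. Of 50 measured genes 35 were lower on replicate 1 (median −0.35) and 38 were higher on replicate 2 (median 0.28), and none passed the adjusted p. Within each genotype the replicates lay far apart. In wild type 40 of the 50 genes were higher in replicate 1, with a median difference of 0.96 on the log2 scale, and in Sox4cKO also 40 of 50, with a median of 0.63. Lce1b, a late cornified-envelope gene, had levels of 13.31 and 8.66 in wild type and of 12.796 and 9.11 in the knockout. The dyes were swapped between the replicates, and this difference had the same direction in wild type and Sox4cKO. Replicate and sex of the embryos cannot be told apart in it. For Lce1b it exceeded the array ratios of −0.51 and 0.45. Abundant members varied in their ratios. Array ratios were 0.20 and −0.05 for Lor, which encodes loricrin, and 0.15 and 0.13 for Ivl, which encodes involucrin. They were −1.04 and 0.50 for Lce1m and −0.64 and 0.56 for Lce1d, which are also abundant.

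Basal and suprabasal markers checked the labelled tissue. The 15 basal genes were all well above background in both channels of both arrays and had a median of 0.02 (range −0.16 to 0.24), with Krt14 at 0.24 and Krt5 at 0.02 (limma adjusted p = 0.994). The 16 suprabasal genes were likewise all measured and had a median of 0.08 (−0.16 to 0.23), with Krt1 at 0.23 (0.934). The median was 0.05 for 23 genes of barrier lipids, 0.01 for 22 cornification enzymes and 0.08 for 23 transcription factors of differentiation. The largest values in these lists were Maf, a regulator of late differentiation (0.33 and 0.56), Klk6 (0.18 and 0.67) and Klk7 (0.35 and 0.47), which encode kallikrein proteases, and none passed the adjusted p.

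Genes of the hair bud were mixed. The median of 21 genes was 0.01, with 5 lower and 2 higher at an unadjusted p under 0.05 (3.85% and 2.57% of all genes were), and none passed the adjusted p. The 4 with the largest values were lower on both arrays. They were Sostdc1 (−0.36 and −0.67), a BMP and Wnt inhibitor of the placode margin, Pthlh (−0.46 and −0.51), a placode hormone, Ptch1 (−0.45 and −0.31), the hedgehog receptor, and Dkk4 (−0.22 and −0.53), a Wnt inhibitor.

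**Figure D4:**
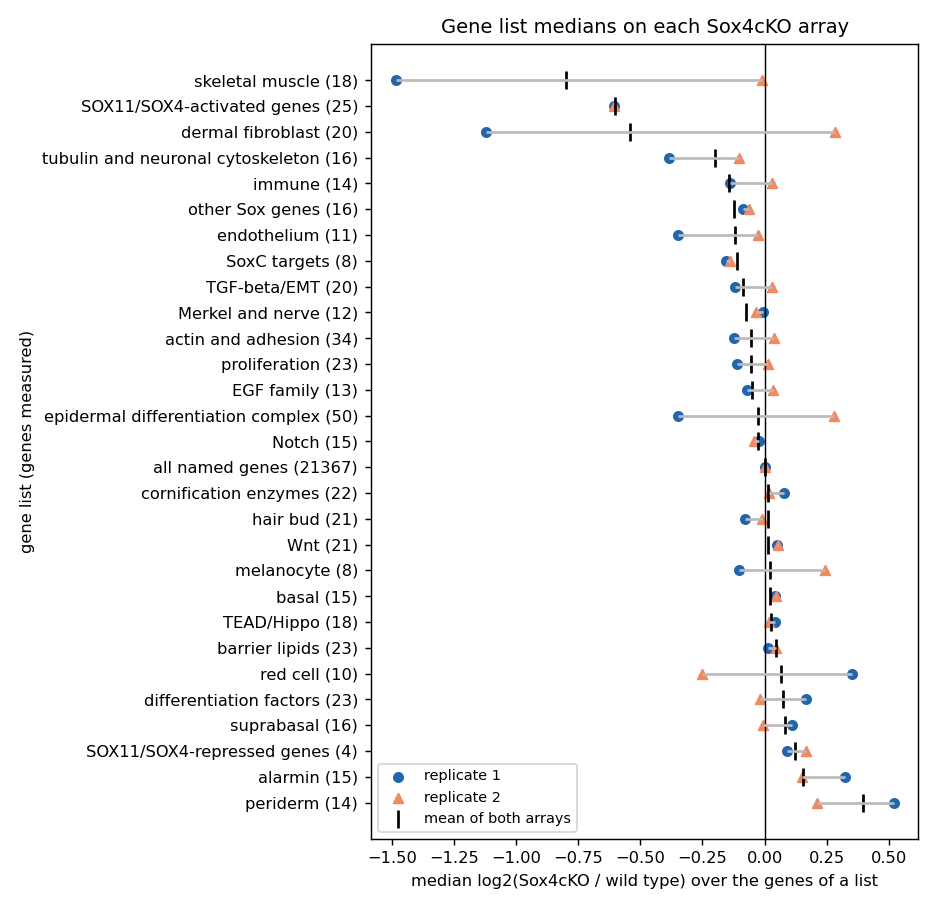
Median log2(Sox4cKO/wild type) of each gene list on replicate 1 and on replicate 2, with all genes for reference. The study's activated list lies near −0.6 on both arrays and the periderm list above 0 on both (0.52 and 0.21), while the dermal (−1.12 and 0.28) and differentiation-complex (−0.35 and 0.28) lists change sign between arrays.

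Signalling and growth lists had medians near that of all genes. The median was 0.02 for 21 Wnt genes (Lef1, −0.19), −0.02 for 15 Notch genes (Notch1, 0.15), −0.05 for 13 genes of EGF receptor signalling (Ereg, −0.28) and −0.09 for 20 genes of TGF-beta signalling and epithelial-mesenchymal transition (Ezh2, −0.31). For 23 proliferation genes it was −0.05, with Ccnd1, which encodes cyclin D1, at −0.22 and −1.27 and Mcm7, a subunit of the replicative helicase, at −0.61 and −0.37. For 15 alarmins and other stress genes it was 0.15, with S100a9, a calprotectin subunit, at 0.39 and 1.09 and the cytokine Il18 at −0.01 and −2.48. None of these genes passed the adjusted p.

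Markers of other cells also differed between the arrays. The 11 endothelial genes had a median of −0.35 on replicate 1, where 10 were lower, and of −0.03 on replicate 2. The 10 red-cell genes had medians of 0.35 and −0.25, and the 8 melanocyte genes of −0.10 and 0.24, with all 8 higher on replicate 2. The medians on replicates 1 and 2 were −0.14 and 0.03 for 14 immune genes and −0.00 and −0.04 for 12 genes of Merkel cells and nerve. None of these genes passed the adjusted p. Genes beside Sox4 on its chromosome did not pass either. Cdkal1 had a mean log2 ratio of −0.09, E2f3 of −0.30 and Mboat1 of 0.04.

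Sox4cKO was last set beside the other genotypes, whose arrays used wild-type RNA that may have been shared. The 12 lower genes had a median of −1.04 in Sox4cKO, −0.21 in Sox11cKO and −1.33 in dcKO. In the dcKO comparison 11 of the 12 passed the adjusted p (0.604% of all genes were lower and passed), with Bex1 (0.315) as the exception. The dcKO ratios did not choose these genes. The dcKO test was still not free of the choice, because its spread was estimated over all genotypes, the Sox4cKO arrays included. None of the 12 passed the test of the difference between dcKO and Sox4cKO or that between Sox4cKO and Sox11cKO, which does not show that the genotypes were alike. Tes, for example, had array ratios of −1.39 and −1.68 in Sox4cKO, 0.12 and 0.14 in Sox11cKO and −1.64 and −1.60 in dcKO (limma adjusted p of the difference between Sox4cKO and Sox11cKO, 0.234).

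For the 12 higher genes the medians were 0.75 in Sox4cKO, 0.16 in Sox11cKO and 0.75 in dcKO, with individual genes that went different ways. In dcKO 4 passed as higher (0.978% of all genes did) and 2 as lower, Krt4 and Upk1b. Here too the spread was estimated with the Sox4cKO arrays that chose the genes. Flg had array ratios of 4.50 and 4.83 in dcKO and −0.27 and 0.31 in Sox11cKO, and its dcKO value exceeded that in Sox4cKO by 3.60 on the log2 scale (limma adjusted p = 3.29e-04). Krt4 had −1.44 and −1.51 in Sox11cKO and −1.27 and −1.72 in dcKO. It was the only probe called between Sox4cKO and Sox11cKO (0.00180%), with a difference of 2.46 on the log2 scale (limma adjusted p = 0.0359). The Krt4 call was lost when any 1 of the 4 Sox4cKO and Sox11cKO arrays was left out and without the replicate block, and no probe was called with the scanner software's ratio or among probes well above background alone. Upk1b (adjusted p = 0.0457) and Krt19 (0.0439) had lower values in dcKO than in Sox4cKO, by differences of −2.19 and −2.09.

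Across all probes, 73 differed between dcKO and Sox4cKO (0.131%), of which 62 were higher in dcKO. As a list, periderm genes had a median of 0.40 in Sox4cKO, −0.19 in Sox11cKO and −0.60 in dcKO, and no test of the lists was made.

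**Figure D5:**
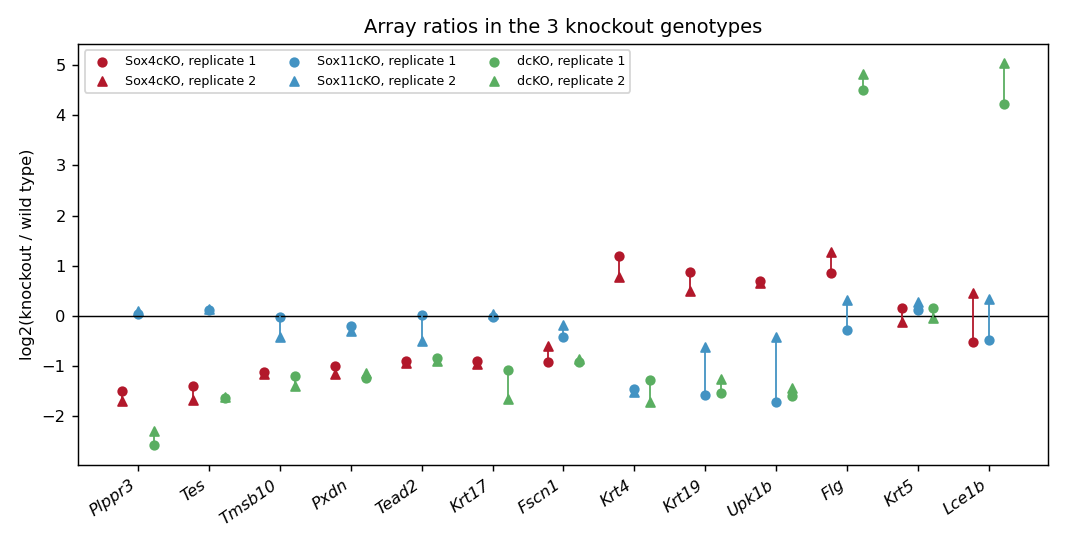
Array ratios, log2(knockout/wild type), of 13 genes in Sox4cKO, Sox11cKO and dcKO, with 1 point per array. Tes, Tmsb10, Pxdn and Tead2 are low in Sox4cKO and in dcKO, Krt4 is above 0 in Sox4cKO alone of the 3 genotypes, and Flg is far above 0 only in dcKO (4.50 and 4.83).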

How the data were processed

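Epidermal RNA of E16 mouse embryos was compared on 6 two-colour Agilent G3 mouse arrays (1 slide, 1 scan), 2 of them Sox4cKO against wild type, with the dyes swapped between replicates. The authors extracted the images with Agilent Feature Extraction 11.0.1.1, and the deposited scanner files give each spot's median intensity per channel with its local background, not normalized, and a log10 ratio made by the scanner software. The authors' deposited series table holds log2 ratios of knockout over wild type, which per their methods were made with normexp (offset 16) and loess in limma (3.5 in the processing notes). It matched the values computed here across probes on every array and was used as a check and an alternative.

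Analysis used limma 3.58.1 under R 4.3.3 on median intensities (mean signals were not used here): normexp with an offset of 16 on all spots, loess within arrays, marked outlier spots left out, and spots averaged per probe (62976 spots, 59305 not controls, 55681 probes). A model on all 6 arrays had 1 coefficient per genotype and 1 dye coefficient, which is also the replicate block, with eBayes moderation (2 residual and 6.63 prior degrees of freedom). All tests were two-sided, and each adjusted p is from limma with Benjamini-Hochberg adjustment over all probes. With 2 arrays a genotype, the spread was estimated over all 3 genotypes, and p-values measure only the spread between these arrays. Channel levels are log2 values after loess and Aquantile normalization. The labels' numbers, which coincide with the dyes, were taken to pair the arrays. Deviations of same-numbered arrays from their genotype means correlated across probes at 0.26 to 0.33. These correlations cannot check the pairing, because dye bias of the probes would also give them.

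RefSeq accessions and symbols of GRCm38.p6 named 28341 probes (21370 symbols), and probe A_52_P127877 was named Flg after the study's probe table. The brightest probe stood for a gene. The members and the 30 gene lists were chosen with earlier results of these data known. Named genes were the SoxC probes, the called probes, the 12 higher and 12 lower genes well above background in all 4 samples with the largest smaller array ratio, and up to 4 members per list with the largest mean ratio, besides genes on which a question of the study turned. The lists were described by counts and medians, with no test. The model was tested on simulated data. Alternatives covered background correction, normalization, the dye term, the prior, dim probes and each array left out. ComBat was coded here after its published parametric form.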

Additional observations from a re-analysis of the deposited data

Results flagged for a closer look

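A difference between genotypes that was itself tested in limma was seen for 1 gene between Sox4cKO and Sox11cKO, where Krt4 was 2.46 higher in Sox4cKO on the log2 scale. This call was lost when any 1 of the 4 arrays of these genotypes was left out. Between dcKO and Sox4cKO the 3 largest differences in each direction are given. Higher in dcKO were 2310050C09Rik by 4.87, Lce1b by 4.66 and Lce1m by 4.45, all genes of the epidermal differentiation complex. Their mean log2 ratios in Sox4cKO were −0.55, −0.03 and −0.27. Lower in dcKO were Vsig8 with a difference of −3.56, Krt4 with −2.48 and Tmem119 with −2.44.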

How the results depend on the processing

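The 3 probes called in Sox4cKO became 0 with a normexp offset of 50, with the Feature Extraction log ratio and with only probes well above background, 1 without background subtraction, and 5 with the Sox4cKO arrays alone and no dye coefficient or with an intensity trend in the prior. Leaving out 1 array at a time gave 0 to 26 probes, with 0 without Sox4cKO replicate 1 or either Sox11cKO array, 5 without either dcKO array and 26 without Sox4cKO replicate 2. The dimmer Sox4 probe had a log2 ratio of −4.74 (adjusted p = 0.520 in limma) with the Feature Extraction ratio, −1.96 (0.0704) with only probes well above background, and −2.25 to −1.67 without 1 array. The 1 probe called between Sox4cKO and Sox11cKO became 2 without background subtraction, 0 with the Feature Extraction ratio or with only probes well above background, 8 with the intensity trend, and 0 to 8 without 1 array. The counts without a Sox4cKO or Sox11cKO array shared 0 probes with the main call. The 73 probes called between dcKO and Sox4cKO became 0 with the Feature Extraction ratio and 42 to 130 without 1 array (42 without Sox4cKO replicate 1, 130 without dcKO replicate 2). The fitted ratio of Saa2 ranged from −0.17 to 1.42 without 1 array, the lower value without Sox4cKO replicate 1 and the higher without replicate 2. Its ratios on the Sox4cKO arrays themselves were 0.67 and 0.57. The causes were not tested.

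Without the replicate block, which here is the dye term, 3 probes were still called in Sox4cKO (the paired count was the same), 0 instead of 1 were called between Sox4cKO and Sox11cKO, and 46 instead of 73 between dcKO and Sox4cKO. Most probes lay near background, which limits what can be said of dim genes such as Sox11.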

Other observations

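Pop4, a subunit of ribonuclease P and MRP, was the only gene well above background in all 4 samples that lay beyond 1 on the log2 scale on both Sox4cKO arrays with replicate 1 higher and replicate 2 lower. Its log2 level was 9.46 and 6.50 in the Sox4cKO samples of replicates 1 and 2 and 6.27 and 9.58 in the wild-type samples, so it was high in the knockout on replicate 1 and in wild type on replicate 2, both of them the Cy5 channel. The array ratios were 3.19 and −3.07. On the other dye-swapped pairs they were 3.36 and −0.46 in Sox11cKO and −0.30 and −0.19 in dcKO.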
